A study of Mus musculus with 12 samples.

Results

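The genes described here are 34 that serve protein folding and quality control in the endoplasmic reticulum (ER) and the unfolded protein response of that compartment. They were chosen by symbol from a list of chaperones, disulfide enzymes, stress sensors, transcription factors, degradation factors and translocation factors, without the amino acid genes that ATF4 controls. All 34 had a row among the 52636 genes of the count table, and all 34 passed the filter on low counts, which kept 15859 genes. The list holds 11 chaperones and cofactors, 5 disulfide enzymes, 6 sensors and transcription factors, 10 degradation factors and 2 factors of translocation.

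RNA was sequenced from mouse embryonic salivary glands that were dissected at E13.5 (days of embryonic development) and cultured on filters for 2 days. The 12 libraries fall into 5 groups. Wild-type glands received the solvent DMSO (3 libraries) or SU5402 at 2.5 µM, a small molecule that inhibits the kinases of FGF receptors (3 libraries, called FGFRi). The other glands came from a cross in which Cre recombinase, driven by the keratin 14 promoter and so active in epithelium, deletes the Fgfr2b form of FGF receptor 2. Homozygous glands (HOM, 2 libraries) were set against littermates labelled heterozygous (HET, 2 libraries) and wild type (WT, 2 libraries). The Cre acts in the epithelium, whereas the inhibitor reached the whole gland in the medium. Whether the libraries of a group are separate embryos is not stated in the labels, so the p-values speak of the spread between libraries, which may be technical.

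As background, secreted and membrane proteins enter the ER through the Sec61 channel, and chaperones and disulfide isomerases fold them there. Unfolded protein frees 3 sensors, IRE1 (gene Ern1), PERK (gene Eif2ak3) and ATF6, from the chaperone BiP (gene Hspa5). IRE1 splices the mRNA of XBP1, ATF6 is cut into an active factor, and both raise genes for chaperones and for ER-associated degradation, while PERK slows translation and favours ATF4. Salivary epithelium is a secretory tissue in which this machinery is built up as acinar cells mature.

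Total counts ran from 6043701 to 22322182 per library, and the 34 genes took 0.265% to 0.450% of them. The share of ribosomal-RNA-like features was 26.3% to 54.0% and was highest in FGFRi replicate 1. Levels below are CPM, counts as a share of the library total, after TMM scaling, a correction for library composition. Read from Xist and Y-linked genes, both HOM libraries and all FGFRi libraries were female, all WT and HET libraries and DMSO replicate 2 were male, and sex and genotype cannot be told apart. Counts over the whole Fgfr2 gene do not separate the deleted exon and therefore check nothing about the deletion; in HOM glands against WT and HET glands the log2 fold change of Fgfr2 was -0.071 ± 0.077 (SE; adjusted p = 0.685).

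The promoters of many of these genes carry the ER stress response element (ERSE), bound by ATF6 and XBP1 together with NF-Y. It was searched as CCAAT and CCACG with any 9 bases between them, on both strands in the 250 bases before each RefSeq gene start, in a table that held 29 of the 34 genes (none for Atf6, Creb3l1, Derl1, Hyou1 and Manf). Of those 29 genes, 9 (31.0%) held at least 1 match, against 37 of 32851 promoters in the whole table (0.113%). The first share counts genes and the second promoters, with those of the 29 genes included. The list was chosen as genes of this response, so its higher share is no independent result. The 9 were Hspa5, Hsp90b1, Calr, Canx, Dnajc3, Creld2, Pdia6, Syvn1 and Derl3. The related element ERSE-II, searched as ATTGG and CCACG with any 1 base between them, on both strands, was found in Herpud1 among these genes and in 0.0304% of all promoters. The core of a further element, UPRE (TGACGTG), was found in Hspa5 and in 1.65% of all promoters. Windows of 170 bases that end at the base before the start are shown for 8 genes whose levels are described below, because they show the element that links them. They run 5′ to 3′ on the gene's strand with the matches in capitals, from RefSeq on GRCm38.p6, a different build from the GRCm39 of the counts; nothing was joined by position.
Hspa5, chr2:34771920-34772089 (plus strand): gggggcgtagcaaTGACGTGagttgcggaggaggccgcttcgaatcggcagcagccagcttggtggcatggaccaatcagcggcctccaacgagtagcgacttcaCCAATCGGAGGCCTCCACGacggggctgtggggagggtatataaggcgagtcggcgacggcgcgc
Hsp90b1, chr10:86705445-86705614 (minus strand): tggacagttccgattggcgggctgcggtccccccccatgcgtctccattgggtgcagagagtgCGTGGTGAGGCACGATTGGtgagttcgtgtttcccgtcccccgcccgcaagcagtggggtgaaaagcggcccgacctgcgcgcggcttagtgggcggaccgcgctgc
Dnajc3, chr14:118937762-118937931 (plus strand): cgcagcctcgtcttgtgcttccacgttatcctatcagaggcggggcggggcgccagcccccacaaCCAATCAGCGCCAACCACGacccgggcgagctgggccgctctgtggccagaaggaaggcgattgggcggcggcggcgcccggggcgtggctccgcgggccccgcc
Pdia6, chr12:17266419-17266588 (plus strand): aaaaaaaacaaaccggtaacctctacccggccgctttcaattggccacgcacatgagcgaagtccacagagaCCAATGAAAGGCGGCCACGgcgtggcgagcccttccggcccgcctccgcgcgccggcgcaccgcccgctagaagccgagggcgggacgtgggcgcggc
Creld2, chr15:88819476-88819645 (plus strand): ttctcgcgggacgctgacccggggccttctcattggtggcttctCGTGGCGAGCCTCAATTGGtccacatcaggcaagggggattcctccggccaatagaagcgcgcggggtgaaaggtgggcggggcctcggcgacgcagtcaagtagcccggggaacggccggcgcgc
Herpud1, chr8:94386259-94386428 (plus strand): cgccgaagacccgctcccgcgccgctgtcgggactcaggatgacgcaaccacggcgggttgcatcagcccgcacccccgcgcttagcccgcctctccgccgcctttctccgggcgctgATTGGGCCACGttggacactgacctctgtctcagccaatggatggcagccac
Canx, chr11:50325674-50325843 (minus strand): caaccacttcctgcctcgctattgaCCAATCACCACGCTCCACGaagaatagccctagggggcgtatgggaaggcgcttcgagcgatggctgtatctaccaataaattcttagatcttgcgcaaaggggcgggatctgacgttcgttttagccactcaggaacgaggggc
Calr, chr8:84846932-84847101 (minus strand): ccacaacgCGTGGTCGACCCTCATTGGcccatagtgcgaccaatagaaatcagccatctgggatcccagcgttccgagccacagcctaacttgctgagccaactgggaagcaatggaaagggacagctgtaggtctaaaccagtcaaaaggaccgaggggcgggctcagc
In Hspa5 the ERSE lay 65 to 47 bases before the start and the UPRE core 157 to 151 bases before it. Hsp90b1 held a second ERSE outside the window shown, 212 to 194 bases before its start. The ERSE of Calr, of Creld2 and the one shown for Hsp90b1 are on the opposite strand, so they read CGTGG first and ATTGG last. A match of letters is a description and not evidence of binding in these glands.

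Per kilobase of exon, averaged over the 12 libraries, the most abundant of the 34 transcripts were those of the disulfide isomerases and lectin chaperones. P4hb, a protein disulfide isomerase that is also a subunit of collagen prolyl hydroxylase, stood at 159.9 CPM per kilobase, and Calr (calreticulin, which holds glycoproteins) at 145. Pdia3, the isomerase that works with calreticulin, followed at 104, Canx (calnexin, its membrane-bound relative) at 85.7 and Hspa5 at 75.8. At the low end were Atf6 at 4.20, Derl2 at 3.54, Ern1 at 2.93 and Derl3 at 1.07 CPM per kilobase. Eif2ak3, the remaining sensor, stood at 4.89, so all 3 sensors were among the least abundant of these transcripts. Derl3, a derlin of the degradation channel known from secretory cells, had only 6 to 58 counts per library, which limits its precision.

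With SU5402, 10 of the 34 genes fell, none rose and 24 did not pass the test (edgeR's quasi-likelihood test, Benjamini-Hochberg adjusted p under 0.05 over all 15859 genes). In this comparison 20.5% of all genes tested were called, 10.7% as lower and 9.73% as higher; of the 34 genes, 29.4% were called lower. At an unadjusted p under 0.05, 16 (47.1%) were lower, against 17.8% of all genes tested, and 0 higher, and limma-voom and DESeq2 also called 0 higher. The median log2 fold change was -0.19 over the 34 genes and -0.015 over all genes tested. Of the 34 values, 31 were negative. Scaling by epithelial marker counts in place of TMM moved these medians to 0.22 and 0.39. The calls became 14 higher and 1 lower (Hyou1), on a scale where the median over all genes lay above that of the 34. The share of all genes called higher under that scaling is not given here. The distance between both medians stayed at -0.18. It carries no support, since a change of scaling shifts all genes by nearly the same amount. In 18 of the 34 genes (52.9%) all FGFRi libraries lay below all DMSO libraries, against 20.5% of all genes tested, and in 0 genes they lay above. The call rested in part on FGFRi replicate 1: without it 5 genes remained lower, Hyou1, Sdf2l1, Dnajc3, Hsp90b1 and Creld2. Library totals with no correction for composition gave 2, Hyou1 and Sdf2l1. A covariate for sex gave 7, without Creld2, Edem1 and Sec61b. Sex varied within the DMSO group alone, so that covariate was set by DMSO replicate 2 against replicates 1 and 3.

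**Figure D1:**
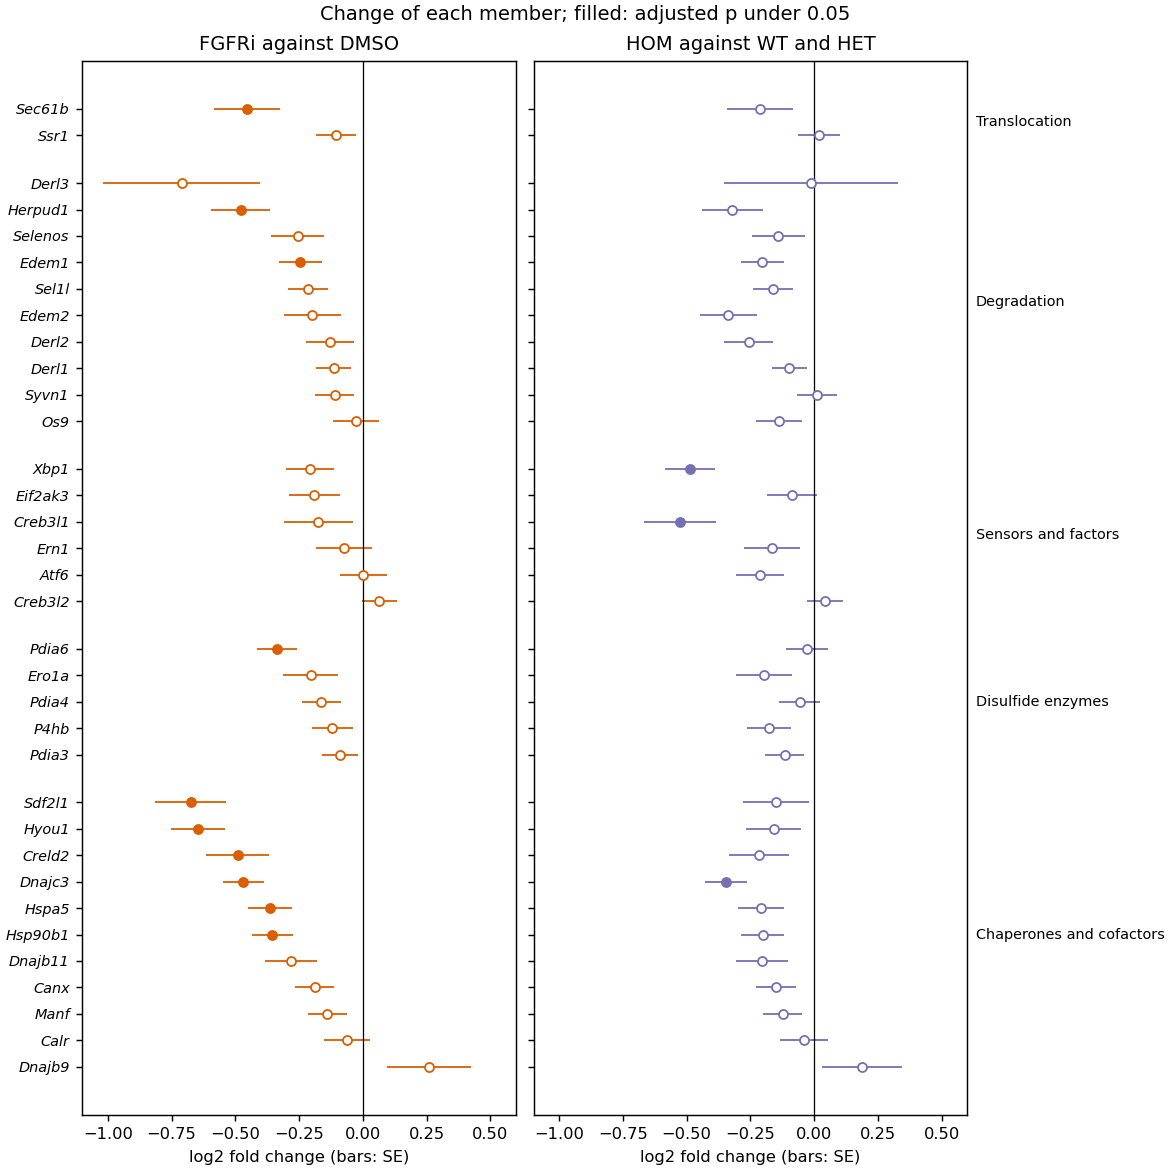
Log2 fold change of each of the 34 genes by role, with SU5402 against DMSO (left) and in HOM against WT and HET glands (right), with TMM scaling; bars are standard errors and filled points have an adjusted p under 0.05. Filled points are 10 on the left and 3 on the right, all below 0. With scaling by epithelial markers 14 and 24 genes were called higher instead, where the median over all genes tested lay above that of the 34.

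The chaperones and their cofactors held 6 of the 10 calls. Hspa5 (ENSMUSG00000026864) encodes BiP, the central Hsp70 of the ER, and stood at 376, 360.4 and 309 CPM in the DMSO libraries and at 257, 276 and 278 CPM in the FGFRi libraries. All FGFRi libraries were below all DMSO libraries, and the log2 fold change was -0.37 ± 0.086 (SE; adjusted p = 0.00740). Without FGFRi replicate 1 the adjusted p was 0.0586, and with epithelial scaling the log2 fold change was 0.044.

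Hyou1 (ENSMUSG00000032115), a large Hsp70-related protein that exchanges the nucleotide of BiP, fell from 200.2, 166 and 142 CPM to 96.7, 117 and 109.8 CPM. The groups did not overlap, and the log2 fold change of -0.65 ± 0.11 (adjusted p = 6.5e-04) was called lower under all 18 alternative settings run. Sdf2l1 (ENSMUSG00000022769), a cofactor that works with ER DnaJ proteins and BiP, stood at 20.1, 20.1 and 16.8 CPM with DMSO and at 9.54, 11.4 and 13.8 CPM with SU5402. All FGFRi libraries were again the lower ones, with a log2 fold change of -0.68 ± 0.14 (adjusted p = 0.00318). These were the largest called changes among the 34 genes.

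Dnajc3 (ENSMUSG00000022136) encodes P58IPK, a DnaJ cochaperone of BiP. It stood at 105, 109.7 and 101 CPM in the DMSO libraries and at 69.2, 74.1 and 83.8 CPM in the FGFRi libraries, with a log2 fold change of -0.47 ± 0.080 (adjusted p = 9.0e-04). The groups were well apart, and the call held with each of the 6 libraries left out. Hsp90b1 (ENSMUSG00000020048), the Hsp90 of the ER (GRP94), stood at 307, 280.1 and 259 CPM with DMSO and at 216, 223 and 223 CPM with SU5402. Its log2 fold change was -0.35 ± 0.080 (adjusted p = 0.00596), and 0.054 with epithelial scaling. Its exons overlap a gene on the opposite strand, as do those of Pdia6, Pdia3, Manf, Dnajb9, Eif2ak3, Syvn1 and Derl2, and without use of strand in counting such reads cannot be told apart. Creld2 (ENSMUSG00000023272), a protein that ER stress induces, stood at 31.7, 31.0 and 22.3 CPM with DMSO and 19.6, 20.9 and 20.4 CPM with SU5402. The third DMSO library was close to the FGFRi libraries, but no library overlapped, and the log2 fold change was -0.49 ± 0.12 (adjusted p = 0.0103). Without DMSO replicate 2 its adjusted p was 0.0637.

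The remaining 5 chaperones did not pass the test. Dnajb11, a DnaJ partner of BiP, had a log2 fold change of -0.28 ± 0.10 (adjusted p = 0.0617), and Canx one of -0.19 ± 0.076 (adjusted p = 0.0932). In both genes the FGFRi libraries lay below the DMSO libraries. Manf, a small secreted ER stress protein, had a value of -0.14 ± 0.076, and Calr one of -0.062 ± 0.089 with a 95% interval of -0.25 to 0.13. Dnajb9 (ERdj4), which keeps IRE1 inactive, stood at 8.44, 11.9 and 12.97 CPM with DMSO and 14.3, 13.7 and 12.7 CPM with SU5402. The groups overlapped, and its log2 fold change of 0.26 ± 0.16 (adjusted p = 0.294) was the highest among the 34 genes.

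Among the 5 disulfide enzymes, 1 fell. Pdia6 (ENSMUSG00000020571), an isomerase that binds BiP, stood at 156, 147 and 136 CPM with DMSO and at 109, 112 and 125 CPM with SU5402. No FGFRi library reached the DMSO libraries, and the log2 fold change was -0.34 ± 0.079 (adjusted p = 0.00717). Without FGFRi replicate 1 or 2 the adjusted p rose, to 0.0597 at most. Ero1a, the oxidase that recharges the isomerases, had a log2 fold change of -0.20 ± 0.11, Pdia4 one of -0.16 ± 0.078, P4hb one of -0.12 ± 0.080 and Pdia3 one of -0.089 ± 0.072. None of these 4 passed the test.

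None of the 6 sensors and transcription factors passed the test with SU5402, and in all 6 the libraries of both groups overlapped (1 had an unadjusted p under 0.05, Xbp1). Xbp1 stood at 78.2, 81.0 and 70.8 CPM with DMSO and at 57.2, 67.5 and 73.4 CPM with SU5402. Its log2 fold change was -0.21 ± 0.095 (adjusted p = 0.144); gene counts do not separate its spliced from its unspliced mRNA. Eif2ak3 had a log2 fold change of -0.19 ± 0.10 and Ern1 one of -0.073 ± 0.11. Creb3l1 (OASIS), an ATF6-like membrane factor of secretory and matrix-producing cells, had a value of -0.17 ± 0.13, and its relative Creb3l2 one of 0.065 ± 0.068. Atf6 had a log2 fold change of 0.0018 ± 0.093 with a 95% interval of -0.20 to 0.20.

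Of the 10 degradation factors 2 fell. Herpud1 (ENSMUSG00000031770), a membrane protein that organises the HRD1 ubiquitin ligase, stood at 37.9, 36.7 and 32.5 CPM with DMSO and at 22.6, 25.9 and 27.6 CPM with SU5402. The groups did not overlap, and the log2 fold change was -0.48 ± 0.12 (adjusted p = 0.00931); without FGFRi replicate 1 the adjusted p was 0.0568. Edem1 (ENSMUSG00000030104), a lectin that takes misfolded glycoproteins out of the folding cycle, stood at 49.7, 50.4 and 45.8 CPM with DMSO and at 37.6, 42.3 and 42.8 CPM with SU5402. Its log2 fold change was -0.24 ± 0.083 with an adjusted p of 0.0499, just inside the threshold. That call was lost without any 1 of DMSO replicates 1 and 2 and FGFRi replicates 1, 2 and 3, with adjusted p up to 0.231, and with epithelial scaling the value was 0.16.

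The other 8 degradation factors had log2 fold changes from -0.71 to -0.026. Derl3 stood at 3.18, 3.02 and 2.13 CPM with DMSO and at 1.10, 1.73 and 2.05 CPM with SU5402. All FGFRi libraries were below the DMSO libraries, but at these counts the log2 fold change of -0.71 ± 0.31 did not pass the test (adjusted p = 0.121). Sel1l, the scaffold of the HRD1 ligase, had a log2 fold change of -0.22 ± 0.077 (adjusted p = 0.0607), and Syvn1, the ligase HRD1 itself, one of -0.11 ± 0.078. Selenos, a selenoprotein of the retrotranslocation complex, had a value of -0.26 ± 0.10, and Edem2, which trims the first mannose of glycoproteins marked for degradation, one of -0.20 ± 0.11. The derlins Derl1 and Derl2 had values of -0.11 ± 0.067 and -0.13 ± 0.095, and the lectin Os9 one of -0.026 ± 0.089.

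Sec61b (ENSMUSG00000053317), a subunit of the translocation channel, stood at 36.1, 47.1 and 43.0 CPM with DMSO and at 26.1, 29.4 and 35.9 CPM with SU5402. The highest FGFRi library came close to the lowest DMSO library, and the log2 fold change was -0.45 ± 0.13 (adjusted p = 0.0232). Without DMSO replicate 2, FGFRi replicate 1 or FGFRi replicate 2 its adjusted p was as high as 0.129. Ssr1, a subunit of the translocon-associated protein complex, had a value of -0.10 ± 0.079 and did not pass the test. Leaving out each library in turn, 4 of the 10 calls held in all 6 fits: Hyou1, Sdf2l1, Dnajc3 and Hsp90b1.

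**Figure D2:**
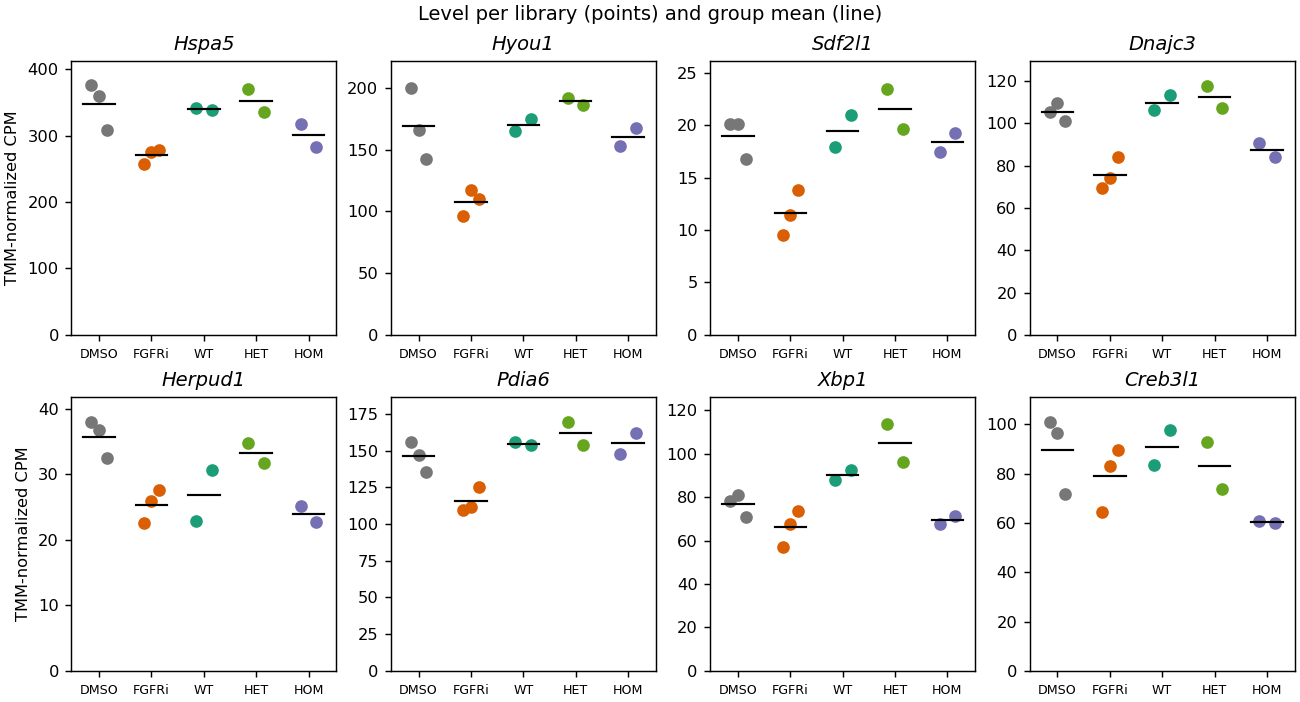
TMM-normalized CPM of 8 of the genes in every library (points, 1 per library) with the group mean (line), for the DMSO, FGFRi, WT, HET and HOM groups. The FGFRi points lie below all DMSO points for Hspa5, Hyou1, Sdf2l1, Dnajc3, Herpud1 and Pdia6. The HOM points lie below all WT and HET points for Hspa5, Dnajc3, Xbp1 and Creb3l1, of which Hspa5 did not pass the test. With epithelial scaling the fold changes of Hspa5 and Pdia6 with SU5402, and of Hspa5 and Dnajc3 in HOM glands, were positive.

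In HOM glands against WT and HET glands, 3 of the 34 genes fell, none rose and 31 did not pass the test. In this comparison 5.88% of all genes tested were called, 2.44% as lower and 3.44% as higher; of the 34 genes, 8.82% were called lower. At an unadjusted p under 0.05, 10 (29.4%) were lower, against 9.31% of all genes tested, and 0 higher, and limma-voom and DESeq2 also called 0 higher. The median log2 fold change was -0.16 over the 34 genes and 0.00055 over all genes tested. Of the 34 values, 30 were negative. Epithelial scaling moved these medians to 0.32 and 0.48. The calls became 24 higher and 0 lower, again where the median over all genes lay above that of the 34. For HOM glands too, the share of all genes called higher under that scaling is not given here. The distance between both medians stayed at -0.16, again by construction. In 15 genes (44.1%) both HOM libraries lay below all 4 control libraries, against 12.2% of all genes tested, and in 0 genes they lay above. No call held with each library left out: 1 gene, Xbp1, remained lower without WT replicate 1, WT replicate 2 or HET replicate 1, and 0 genes remained without HOM replicate 1 or 2. With library totals 0 genes were called lower. With sex as a covariate 0 were called as well. Sex varied within the DMSO group alone, so that fit cannot separate sex from genotype.

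The genes that fell were 2 transcription factors and a cochaperone. Xbp1 (ENSMUSG00000020484), the main transcriptional arm of the IRE1 pathway, stood at 87.8 and 92.4 CPM in the WT libraries, at 114 and 96.3 CPM in the HET libraries and at 67.4 and 71.1 CPM in the HOM libraries. Both HOM libraries were below all controls, and the log2 fold change was -0.49 ± 0.098 (SE; adjusted p = 0.00869). The adjusted p was as high as 0.103 without HOM replicate 1 or 2. Against HET alone Xbp1 was the 1 gene called.

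Creb3l1 (ENSMUSG00000027230) stood at 83.6 and 97.8 CPM in WT, 92.7 and 73.8 CPM in HET and 60.6 and 60.0 CPM in HOM libraries. The log2 fold change was -0.53 ± 0.14 (adjusted p = 0.0400). Dnajc3 stood at 106 and 113 CPM in WT, 117 and 107 CPM in HET and 90.7 and 84.1 CPM in HOM libraries, a log2 fold change of -0.35 ± 0.083 (adjusted p = 0.0222) that was 0.13 with epithelial scaling. No HOM library reached a control library for either gene. For both, the call was lost without WT replicate 1, WT replicate 2, HET replicate 1, HOM replicate 1 or HOM replicate 2, with adjusted p up to 0.304 for Creb3l1 and 0.296 for Dnajc3.

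Apart from Dnajc3, none of the chaperones that fell with SU5402 passed the test in HOM glands. Hspa5 stood at 342 and 339 CPM in WT, 370.3 and 335 CPM in HET and 318 and 283 CPM in HOM libraries, a log2 fold change of -0.21 ± 0.091 (adjusted p = 0.221). The HOM libraries were the lowest, by less than their own difference. Hsp90b1 had a log2 fold change of -0.20 ± 0.084 (adjusted p = 0.195) and Creld2 one of -0.22 ± 0.12 (adjusted p = 0.348). Hyou1, at 179 ± 12.1 CPM (SD, n = 4) in the controls and 160.3 ± 10.7 CPM (SD, n = 2) in HOM libraries, had a value of -0.16 ± 0.11 and overlapping libraries. Sdf2l1 had a value of -0.15 ± 0.13, Canx one of -0.15 ± 0.080, Dnajb11 one of -0.21 ± 0.10, Manf one of -0.12 ± 0.077 and Calr one of -0.041 ± 0.094. Dnajb9 was again the highest, at 0.19 ± 0.16.

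Among the disulfide enzymes none passed the test in HOM glands, from -0.20 for Ero1a to -0.028 for Pdia6, whose 95% interval was -0.20 to 0.14. Of the sensors, Atf6 had a log2 fold change of -0.21 ± 0.095 (adjusted p = 0.234), with both HOM libraries below the controls, Ern1 one of -0.16 ± 0.11 and Eif2ak3 one of -0.087 ± 0.10. Creb3l2 had a value of 0.043 ± 0.069. Among the degradation factors, none of which passed the test, the lowest values were those of Edem2 at -0.34 ± 0.11 (adjusted p = 0.0993), Herpud1 at -0.32 ± 0.12 (adjusted p = 0.140) and Derl2 at -0.26 ± 0.096 (adjusted p = 0.140). Herpud1 stood at 22.9 and 30.7 CPM in WT, 34.8 and 31.7 CPM in HET and 25.1 and 22.7 CPM in HOM libraries, so the WT libraries alone spanned most of the range. Sec61b and Ssr1 had values of -0.21 ± 0.13 and 0.020 ± 0.082.

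The 2 comparisons share no library, and their values were set side by side gene by gene. Dnajc3 was the 1 gene that fell in both. Both values were negative in 29 of the 34 genes (85.3%), against 32.7% of all genes tested; that count depends on the scaling, since epithelial scaling made most of these values positive. Across the 34 genes Pearson's r between both sets of values was 0.304 and Spearman's rho 0.404, against 0.401 and 0.374 across all genes tested; genes are not independent replicates, and each value carries the composition of its libraries. The difference between the effects (SU5402 effect minus HOM effect, in the same fit) passed the test in 0 of the 34 genes, against 2.77% of all genes tested. At an unadjusted p under 0.05 there were 3 genes, DESeq2 called 1 (Hyou1) and limma-voom 0. Those 3 genes were Hyou1, with a difference of -0.49 ± 0.15 on the log2 scale (adjusted p = 0.101), Sdf2l1 with -0.53 ± 0.19 (adjusted p = 0.160) and Pdia6 with -0.31 ± 0.11 (adjusted p = 0.168). In the other direction, the difference was 0.28 for Xbp1 (95% interval -0.0070 to 0.57) and 0.35 for Creb3l1 (95% interval -0.061 to 0.77). That Hyou1 passed the test in the first comparison alone, and Xbp1 and Creb3l1 in the second alone, is therefore not shown to be a difference between them.

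**Figure D3:**
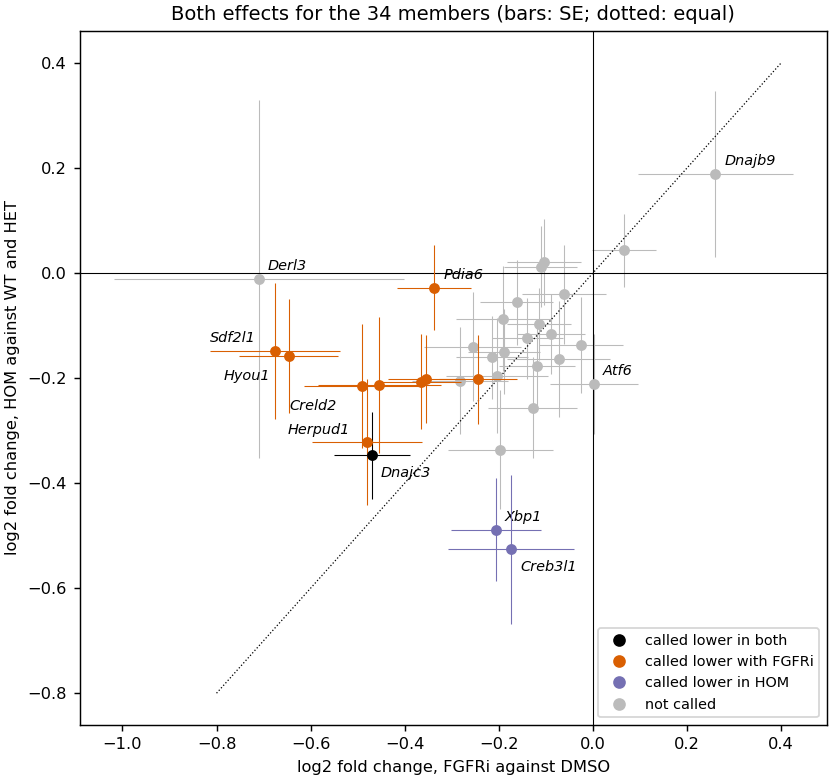
Log2 fold change with SU5402 (horizontal) against that in HOM glands (vertical) for the 34 genes with TMM scaling; bars are standard errors, the dotted line marks equal values and colour marks the calls. Most points, 29 of 34, lie below 0 on both axes, and Dnajc3 was called in both comparisons. With epithelial scaling 14 and 24 genes were called higher instead, where the median over all genes tested lay above that of the 34.

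Between the control groups none of the 34 genes passed the test. HET against WT glands gave 0 calls against 1.22% of all genes tested (2 at an unadjusted p under 0.05, both higher in HET, and 0 by DESeq2 and by limma-voom). Those were Derl3, at 1.25 and 0.973 CPM in WT and 2.95 and 3.46 CPM in HET libraries (log2 fold change 1.502 ± 0.38, adjusted p = 0.0710), and Herpud1 (log2 fold change 0.32 ± 0.14, adjusted p = 0.326). Xbp1 had a value of 0.22 ± 0.11 (adjusted p = 0.403), and both HET libraries were above both WT libraries. DMSO-treated and untreated WT glands differ in the solvent and in being littermates of the cross. They differ in sex as well, since DMSO replicates 1 and 3 were female and both WT libraries were male. Their comparison gave 0 calls against 2.26% of all genes tested (5 at an unadjusted p under 0.05, and 0 by DESeq2 and by limma-voom). Of those 5, 3 were higher with DMSO: Derl3 had a log2 fold change of 1.32 ± 0.36 (adjusted p = 0.0816), Herpud1 one of 0.43 ± 0.13 (adjusted p = 0.114) and Atf6 one of 0.25 ± 0.10 (adjusted p = 0.282). Lower were Xbp1 at -0.23 ± 0.10 (adjusted p = 0.339) and Creb3l2 at -0.21 ± 0.075 (adjusted p = 0.176), and in all 5 the libraries did not overlap. The mean level of Derl3 was thus lowest in the WT group, on few counts.

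Summed over the 34 genes, the level was 3785 to 4325 CPM in DMSO, 3462 to 3598 CPM in FGFRi, 3979 to 4241 CPM in WT, 4015 to 4416 CPM in HET and 3736 to 3784 CPM in HOM libraries. The FGFRi sums lay below all DMSO sums and the HOM sums below all WT and HET sums. Markers of cell types also differed between groups. In HET against WT glands 4 mesenchyme and 5 skeletal muscle markers were called higher, and 0 epithelial markers were called. The epithelial sums were lower in HET than in WT libraries, and the sums of the 34 genes overlapped, with 2 libraries in each group. How these sums relate was not tested. Of 20 epithelial markers, 17 fell and 1 rose with SU5402 and 11 fell in HOM glands; their sum was 3789 to 4383 CPM in DMSO, 2923 to 3199 CPM in FGFRi, 3898 to 4006 CPM in WT, 3345 to 3582 CPM in HET and 2605 to 2703 CPM in HOM libraries. Of 14 mesenchyme markers tested, 11 rose with SU5402 and 7 in HOM glands, and the sum was 2033 to 2156 CPM in DMSO, 3376 to 4806 CPM in FGFRi, 2230 to 2325 CPM in WT, 3213 to 3529 CPM in HET and 3553 to 3686 CPM in HOM libraries. Of 14 skeletal muscle markers tested, all 14 rose with SU5402 and 8 in HOM glands, from 31.8 to 95.6 CPM in DMSO libraries to 197 to 858 CPM in FGFRi libraries, and from 17.3 to 22.8 CPM in WT and 119.9 to 228 CPM in HET to 232 to 255 CPM in HOM libraries. No epithelial marker was at 0 in any library, and of the mesenchyme markers Tcf21 was at 0 in 10 libraries.

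Markers of maturing acinar cells, the secretory cells of the gland, moved as well. Of 13 tested, 9 fell with SU5402 and 3 in HOM glands, and their sum was 861 to 1505 CPM in DMSO, 313 to 776 CPM in FGFRi, 904 to 921 CPM in WT, 952 to 1229 CPM in HET and 557 to 581 CPM in HOM libraries. Of 12 Schwann cell and neuron markers, 8 rose and 1 fell with SU5402 and 3 rose in HOM glands, with sums of 206 to 301 CPM in DMSO, 228 to 276 CPM in FGFRi, 270.4 to 309 CPM in WT, 258.5 to 281.4 CPM in HET and 336 to 371 CPM in HOM libraries. Among markers of plasma and B cells, the former rich in the same ER genes, Igkc and Tnfrsf17 were at 0 in all 12 libraries, Mzb1 in 5, Jchain and Cd79b in 3 each, Cd79a in 1 and Ighm in 0, the last 5 at a mean of 0.106 to 0.481 CPM. Sdc1, the remaining marker of that list, which epithelium also expresses, had a mean of 131 CPM. In bulk glands, fewer cells of a type and less RNA per cell cannot be told apart, and the part of these marker shifts in the changes of the 34 genes was not tested. With the counts of the epithelial markers as library size, the 10 genes that fell with SU5402 split: Hyou1 was at -0.24 (adjusted p = 0.0499, the one still called lower) and Sdf2l1 at -0.27, Creld2, Herpud1, Dnajc3 and Sec61b were close to 0 (-0.075, -0.074, -0.065 and -0.051), and Hspa5, Hsp90b1, Pdia6 and Edem1 had a positive value. Of the 3 that fell in HOM glands, Xbp1 and Creb3l1 were close to 0 under that scaling (-0.0098 and -0.045), Dnajc3 was positive, and none was called. Of all 34 genes, 24 changed sign with SU5402 and 28 in HOM glands.

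**Figure D4:**
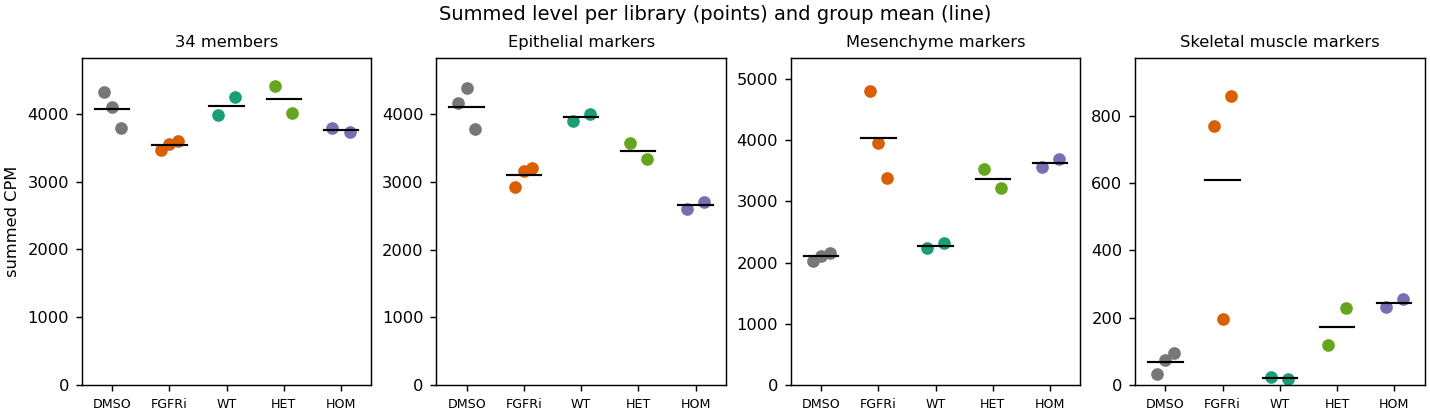
Summed CPM of the 34 genes and of 3 marker lists in each library (points) with the group mean (line), all on the TMM scale. The 34-gene sum is 3462 to 3598 CPM in FGFRi and 3736 to 3784 CPM in HOM libraries, the epithelial sum is lower and the mesenchyme and muscle sums are higher in the same libraries.

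The 10 genes with an ERSE or ERSE-II in the promoter sequence searched had a median log2 fold change of -0.36 with SU5402, from -0.71 to -0.062, and 6 of them fell: Hspa5, Hsp90b1, Dnajc3, Creld2, Pdia6 and Herpud1, whose windows are printed above. Canx, Calr, Syvn1 and Derl3 carry the element and did not pass the test. Among the 19 genes with neither element the median was -0.19, and 3 fell (Sdf2l1, Edem1 and Sec61b). Hyou1, which fell with SU5402, and Creb3l1, which fell in HOM glands, had no promoter sequence and are in neither group. In HOM glands 1 of the 10 fell (Dnajc3) with a median of -0.18, and 1 of the 19 (Xbp1) with a median of -0.16. With epithelial scaling many of these values were positive, as given above. These are counts over genes that share libraries, and no test of the element was made.

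Other genes of the ER were listed for comparison, again with earlier results of these data known. Of 24 further folding factors tested, 5 fell and 4 rose with SU5402 on the TMM scale, and with epithelial scaling 14 were higher and 0 lower. For this and the lists below, the median over all genes tested was itself positive under epithelial scaling. The share of all genes called under that scaling is not given here, so these counts cannot be set against it. Those that fell included the first enzymes of N-glycan trimming, Mogs (glucosidase I, -0.57 ± 0.11) and Ganab (the catalytic subunit of glucosidase II, -0.34 ± 0.077). Those that rose were the collagen-related folding factors Fkbp10 (0.88 ± 0.12), Fkbp14 (0.79 ± 0.14), Fkbp7 (0.83 ± 0.23) and Serpinh1 (0.37 ± 0.091; HSP47, the collagen chaperone). Fkbp10 stood at 19.9, 20.8 and 16.6 CPM with DMSO and 40.4, 36.1 and 31.5 CPM with SU5402, and all FGFRi libraries were above all DMSO libraries. These 4 rose beside the mesenchyme markers given above, and the part of those cells in it was not tested. In HOM glands, where epithelial scaling made 18 of the 24 higher and 0 lower, 1 rose with TMM, Serpinh1 (0.35 ± 0.094, adjusted p = 0.0410), and 1 fell, Dnajc10 (-0.40 ± 0.091, adjusted p = 0.0161; an ER reductase that aids degradation).

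Of 24 further factors of translocation and N-glycosylation, 8 fell and 0 rose with SU5402, against 9 higher and 0 lower with epithelial scaling. Those that fell included Srpr (-0.39 ± 0.074; the receptor of the signal recognition particle), Stt3b (-0.34 ± 0.067) and Ost4 (-0.64 ± 0.17), both subunits of oligosaccharyltransferase, and Sec11c (-0.53 ± 0.13; a subunit of signal peptidase). In HOM glands 2 fell, Sec11c (-0.60 ± 0.13) and Rpn1 (-0.28 ± 0.077; a further oligosaccharyltransferase subunit), and 0 rose, against 19 higher and 0 lower with epithelial scaling. At an unadjusted p under 0.05 with TMM, 13 of the 24 were lower with SU5402 and 10 in HOM glands, and none was higher in either. Of 14 further degradation factors, those that fell with SU5402 included the ubiquitin ligase Rnf5 (-0.47 ± 0.13), and 0 passed the test in HOM glands (2 at an unadjusted p under 0.05, by edgeR); epithelial scaling gave 11 and 14 higher and 0 lower.

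Of 12 further genes of unfolded protein response signalling, 3 fell with SU5402 and 2 in HOM glands, and 0 rose, against 2 higher and 1 lower, and 6 higher and 0 lower, with epithelial scaling. Bhlha15 (MIST1), a transcription factor of secretory cells that XBP1 is known to raise, stood at 70.8, 74.2 and 52.2 CPM with DMSO, 22.9, 32.2 and 48.2 CPM with SU5402, 64.5 and 65.6 CPM in WT, 96.4 and 78.6 CPM in HET and 43.0 and 43.9 CPM in HOM libraries. It fell in both comparisons, with a log2 fold change of -0.89 ± 0.19 with SU5402 (adjusted p = 0.00410) and of -0.80 ± 0.19 in HOM glands (adjusted p = 0.0251). With epithelial scaling these values were -0.49 (adjusted p = 0.0233) and -0.32 (adjusted p = 0.110), both still negative. It is also in the list of acinar markers. Tmbim6 (BAX inhibitor 1, which dampens IRE1) had values of -0.39 ± 0.077 and -0.30 ± 0.082 and fell in both (0.021 and 0.18 with epithelial scaling), and Rtcb, the ligase that joins the ends of spliced Xbp1 mRNA, had a value of -0.25 ± 0.071 with SU5402.

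Of 22 genes of transport between ER and Golgi, 3 rose and 3 fell with SU5402 (13.6% each, close to the 9.73% and 10.7% of all genes tested). Those that rose were the COPII coat subunits Sec23a (0.44 ± 0.082) and Sec24d (0.25 ± 0.081) and the retrieval receptor Kdelr3 (0.54 ± 0.17), and those that fell included the cargo receptor Tmed9 (-0.48 ± 0.099). With epithelial scaling 19 were higher and 0 lower. In HOM glands 1 fell, Sec23b (-0.52 ± 0.12; a COPII coat subunit), and 0 rose, again against 19 higher and 0 lower. Of 12 genes of the PERK and ATF4 branch, 9 fell with SU5402 and 0 rose, and with epithelial scaling 5 were lower and 1 higher. Chac1, which degrades glutathione, had a log2 fold change of -2.92 ± 0.24, Trib3, a pseudokinase, one of -2.60 ± 0.21, Asns (asparagine synthetase) one of -1.23 ± 0.10, and the transcription factor Atf5 one of -0.80 ± 0.080. In HOM glands Asns fell (-0.42 ± 0.10) and Ddit4, an inhibitor of mTORC1, rose (0.37 ± 0.087), against 6 higher and 0 lower with epithelial scaling. The DMSO libraries were themselves high for this branch: against WT, 5 of the 12 genes were called, all higher with DMSO (9 at an unadjusted p under 0.05), whereas 2.26% of all genes were called in either direction. Chac1 stood at 15.9, 17.2 and 10.01 CPM with DMSO, 1.47, 1.51 and 2.38 CPM with SU5402 and 4.98 and 4.54 CPM in WT libraries, and all DMSO libraries were above all others. The sum over the 12 genes was 535 to 593 CPM in DMSO, 381 to 384 CPM in FGFRi and 441 to 449 CPM in WT libraries.

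Chaperones outside the ER, listed as a contrast, also moved with SU5402: of 16, 5 fell and 1 rose, against 7 higher and 0 lower with epithelial scaling. Those that fell included the mitochondrial factors Lonp1 (-0.53 ± 0.074), Hspa9 (-0.50 ± 0.072) and Hspd1 (-0.39 ± 0.079), and the cytosolic heat shock gene Hspa1b rose (0.70 ± 0.19). In HOM glands 1 fell, Hspa1b (-0.69 ± 0.19), and 0 rose, against 13 higher and 0 lower. Hspa1b has a near-identical copy, Hspa1a, and reads may be split between them. The DMSO libraries, at 10.6 to 11.8 CPM of Hspa1b, lay below the WT libraries, at 20.1 and 14.4 CPM. No difference between ER chaperones and these chaperones was tested. With library totals in place of TMM, the calls with SU5402 were 3 higher and 0 lower for the further folding factors, 0 and 1 for translocation and glycosylation, 0 and 1 for signalling, 0 and 6 for the PERK and ATF4 branch, and 2 and 0 for chaperones outside the ER. For further degradation factors and transport they were 0 and 0, as they were for all 7 lists in HOM glands.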

How the data were processed

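RNA was sequenced from cultured embryonic salivary glands of mice in 12 libraries (3 DMSO, 3 FGFRi, 2 WT, 2 HET, 2 HOM). The authors deposited raw read counts per gene as whole numbers, with bcl2fastq, STAR and build GRCm39 named in the submitters' processing notes; for the counting program, the annotation release and the use of strand, the value is not given in the sources used here. Of the 34 genes, 9 have exons that overlap another gene, 8 of them on the opposite strand. Symbols came from GENCODE M21 by Ensembl identifier (52403 of 52636 matched), and Ero1a and 2 genes of other lists through RefSeq synonyms. Exon lengths came from the same annotation.

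The test of the counts was edgeR's quasi-likelihood test (edgeR 4.0.16 in R 4.3.3) after TMM scaling and filterByExpr (minimum count 10, minimum total 15), which kept 15859 genes. One model held all 12 libraries with a coefficient per group (7 residual and 7.96 prior degrees of freedom; the biological coefficient of variation was 0.11). HOM was compared with the mean of WT and HET. The p-values were adjusted by Benjamini-Hochberg over all genes tested. The procedure was tested on simulated data. Alternatives were DESeq2 1.42.0, limma-voom 3.58.1, other scalings and filters, sex, the control group, the replicate block and each library left out. Depth ran from 6043701 to 22322182 counts; reads are not independent molecules.

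The members and lists were chosen with earlier results of these data known. All 34 members are named, and of 7 lists of related genes up to 4 called genes by smallest p in each comparison, leaving out those under a mean of 1 CPM. Fkbp7, Serpinh1 (for SU5402) and the markers Tcf21, Igkc, Tnfrsf17, Ighm, Cd79a, Cd79b, Jchain, Mzb1 and Sdc1 were named beyond this after their values were seen. One gene that the rule would name is not reported here. Promoter sequences are RefSeq's on GRCm38.p6; motifs were searched in the 250 bases before each start.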

Additional observations from a re-analysis of the deposited data

Results flagged for a closer look

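None of the 34 genes differed between the comparisons by the test of the difference (SU5402 effect minus HOM effect, edgeR with Benjamini-Hochberg adjustment). Among the related genes listed beside them, 8 did. In the PERK and ATF4 branch the difference on the log2 scale was -2.83 ± 0.33 (SE) for Chac1, -2.23 ± 0.29 for Trib3, -0.87 ± 0.11 for Atf5, -0.81 ± 0.15 for Asns, -0.61 ± 0.13 for Sesn2, -0.58 ± 0.12 for Cebpb and -0.51 ± 0.12 for Ddit4, all more negative with SU5402. The baselines differ, DMSO for the one effect and WT with HET for the other, and DMSO against WT called 5 of the 12 genes of this branch higher, with log2 fold changes of 1.73 ± 0.22 for Trib3 and 1.61 ± 0.24 for Chac1. Hspa1b, a cytosolic heat shock gene with a near-identical copy, differed by 1.40 ± 0.26, being 0.70 with SU5402 and -0.69 in HOM glands. Its baselines differ too: it stood at 10.6 to 11.8 CPM in DMSO, 20.1 and 14.4 CPM in WT and 19.5 and 15.8 CPM in HET libraries. The FGFRi libraries, at 13.9 to 22.8 CPM, overlapped the WT libraries. The adjusted p-values of these 8 ran from 2.7e-04 (Chac1) to 0.0410 (Ddit4). In this test 2.77% of all genes were called.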

How the results depend on the processing

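With TMM scaling 10 of the 34 genes were lower with SU5402 and 3 in HOM glands. Leaving out 1 library at a time gave 5 to 11 lower with SU5402, 0 to 3 lower in HOM glands and 0 to 1 called for the difference between both effects. Library totals gave 2 and 0. A covariate for sex, which varied within the DMSO group alone, gave 7 lower with SU5402 and 0 in HOM glands. HET alone as control gave 1. Without a filter on low counts 1 gene was called for the difference and 1 (Derl3) for HET against WT, and DESeq2 called 1 for the difference. Epithelial scaling gave 14 higher and 1 lower with SU5402, 24 higher and 0 lower in HOM glands, 1 for the difference and 2 for HET against WT. With it 24 of the 34 values changed sign with SU5402 and 28 in HOM glands. Those called under either scaling were, with SU5402, Hspa5 0.044, Hsp90b1 0.054, Calr 0.35, Manf 0.27, Pdia3 0.32, Pdia4 0.25, Pdia6 0.070, P4hb 0.29, Ern1 0.34, Syvn1 0.29, Edem1 0.16, Derl1 0.29, Derl2 0.28, Os9 0.39 and Ssr1 0.30. In HOM glands they were Hspa5 0.27, Hsp90b1 0.28, Calr 0.44, Canx 0.33, Dnajb11 0.27, Dnajc3 0.13, Hyou1 0.32, Sdf2l1 0.33, Manf 0.35, Creld2 0.26, Pdia3 0.36, Pdia4 0.42, Pdia6 0.45, P4hb 0.30, Ero1a 0.29, Eif2ak3 0.39, Sel1l 0.32, Edem1 0.27, Derl1 0.38, Os9 0.34 and Selenos 0.34. Under that scaling the median of all genes tested was 0.39 and 0.48. All genes share this shift, because the epithelial marker counts used as library size were lower in FGFRi and HOM libraries. A change of sign is therefore no separate result for a gene. Why those counts were lower was not tested. Replicate numbers do not pair the libraries: deviations of same-numbered DMSO and FGFRi libraries correlated at -0.092, -0.117 and -0.025. A replicate block gave 9 and 2 lower genes. With the WT numbers exchanged, an alternative added after seeing the data, the block also gave 9 and 2. Low counts limit Derl3.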
